A study of Mus musculus with 2 samples.

Results

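The genes described here encode the enzymes of xenobiotic and steroid metabolism that carry standard family names: the cytochromes P450 (Cyp), glutathione S-transferases (Gst), UDP-glucuronosyltransferases (Ugt), sulfotransferases (Sult) and carboxylesterases (Ces). They were chosen by symbol alone, as a family stem followed by its numbers and letters, with the Cyp26 genes of retinoic acid breakdown left out. Of the 17809 gene rows of the wild-type colon table, 97 matched: 42 Cyp, 22 Gst, 11 Ugt, 9 Sult and 13 Ces genes. Of these, 56 also had a row in the reporter table of 15972 genes.

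In drug metabolism, cytochromes P450 add or expose a reactive group (phase I), carboxylesterases split esters and amides, and the transferases then attach glutathione, glucuronic acid or sulfate (phase II), which makes a compound more soluble and easier to export. The same families act on the body's own steroids, sterols, fatty acids and bile acids. The gut lining meets swallowed compounds and bacterial products before the liver does, and its absorptive cells are known for high phase II activity.

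The wild-type library (10x Genomics 3 prime kit V3) held colon cells of wild-type C57BL/6 mice, with EpCAM+CD45- epithelial and EpCAM-CD45- non-epithelial cells sorted apart and mixed in equal parts. The reporter library (kit V2) held GFP+ colonic mesenchymal cells of Pdgfra-H2B-eGFP mice, in which the Pdgfra locus drives a nuclear green protein, so that the sort was for cells using Pdgfra; 114 immune-like cells and 52 cells with epithelial markers were found in it as well. Both strains were sampled from 3 female mice aged 8 to 12 weeks, pooled into 1 library each. No class of cells therefore has a replicate: the values below are levels in single libraries, no difference was tested over animals, and the intervals cover counting error only.

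The wild-type table held 7495 cells with 6120 to 16389 corrected counts each (median 8972), while the reporter library had 4409 cells with 2314 to 4432 each (median 3150). Corrected counts are 3 prime tag counts that the authors adjusted to a common depth, so a level below is a class average of corrected counts over its cells, compared between classes for 1 gene at a time or as a sum. A ratio is the log2 ratio of 2 class means with 0.01 added to each, and a gene counts as past 2-fold only if both classes together held at least 20 corrected counts of it. A fold given with a counting interval, or against a floor of 3 counts, is another measure, the ratio of the means without the 0.01. It can therefore be larger than the log2 ratio beside it implies. Cells were clustered with the member genes left out and classes were named from marker lists, each with the ending -like. In the wild-type library 2497 cells were epithelial and 2494 were fibroblasts, the latter made up of 1139 CBFs1-like, 563 CBFs2-like (crypt bottom fibroblasts) and 792 CTFs-like cells (crypt top fibroblasts). The epithelium comprised 763 transit-amplifying-like, 640 goblet-like and 86 enteroendocrine-like cells, 378 cells of a cluster led by Krt36 that no list named, and 2 enterocyte-like clusters, of 420 cells led by Sptssb and of 210 cells led by Atp12a. The transit-amplifying-like cluster also met the stem list (7 of 10 markers) and the goblet-like cluster the deep crypt secretory list (7 of 7). Clusters of 466, 99 and 20 cells met no list or lists of more than 1 type and were left out of every class. The sum of 10 epithelial markers (Epcam and others) was 201 in the epithelium and 5.44 in the fibroblasts, and that of 10 fibroblast markers 2.17 and 224: epithelial RNA was thus counted at a low level in fibroblasts of the wild-type library. In the reporter fibroblasts the same epithelial sum was 0.090.

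The members added up to 38.0 corrected counts per epithelial cell and 12.6 per fibroblast. Within the epithelium the sum was 75.6 in Sptssb-led and 51.7 in Atp12a-led enterocyte-like cells, 37.9 in transit-amplifying-like cells, 33.9 in the Krt36-led cluster, 16.2 in the enteroendocrine-like and 14.3 in the goblet-like class. In the stroma CBFs2-like cells had 16.6, CBFs1-like cells 13.1, smooth muscle-like cells 12.1 and CTFs-like cells 8.94. Absorptive cells thus held the most of this enzyme RNA, and goblet-like cells about as much as the crypt bottom fibroblasts. The make-up differed more than the sum: Gst genes made up 66.5% of the sum in fibroblasts and 29.9% in the epithelium, whereas Sult genes made up 28% in the epithelium and 1.93% in fibroblasts.

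**Figure D1:**
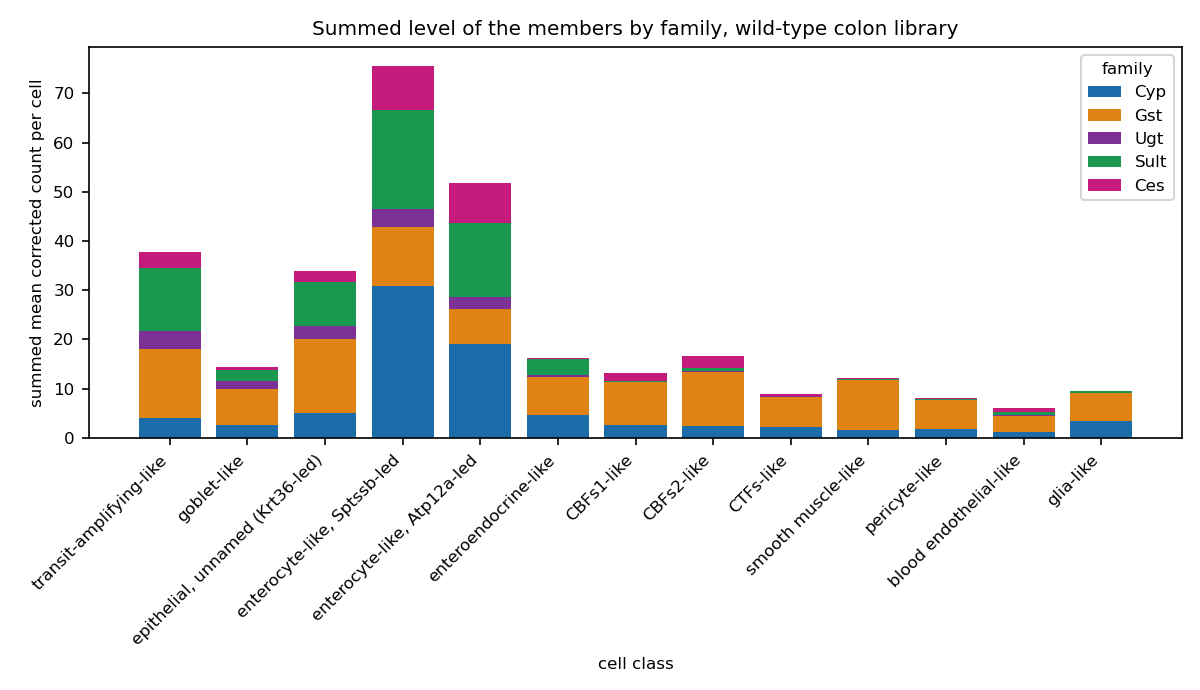
Summed mean corrected count per cell (vertical axis) of the members of each family (colours) in each cell class of the wild-type library (horizontal axis). The bar of the Sptssb-led enterocyte-like cells reaches 75.6 and that of the CTFs-like cells 8.94, and Gst genes fill most of each stromal bar.

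By family, the epithelium stood above the fibroblasts by 5.40 on the log2 scale for the Sult sum (10.7 against 0.242 corrected counts per cell) and by 5.39 for the Ugt sum (2.71 against 0.0549). The Cyp sum differed by 1.94 (9.60 against 2.49) and the Ces sum by 1.37 (3.67 against 1.41). The Gst sum was 11.4 in the epithelium and 8.36 in fibroblasts, a log2 ratio of 0.44 that does not reach 2-fold. Sulfate and glucuronic acid conjugation genes thus had little RNA in fibroblasts, while the summed glutathione conjugation genes were counted on both sides. Gstm1 alone gave 4.39 of the Gst sum in fibroblasts and 1.70 in the epithelium. Gene by gene, 13 of 20 Gst members counted were at least 2-fold higher in the epithelium and 2 lower (median log2 ratio 1.33). Over all genes counted, 33.1% were higher and 16.7% lower. Without the cells at or above 10% mitochondrial counts the Cyp ratio was 0.82 and the Ces ratio 0.75; that limit leaves out 82.1% of the enterocyte-like cells. Whether mitochondrial content has a part in the Cyp level was not tested. In the Sptssb-led cluster Cyp2c55 was 12.1 in the 93 cells below the limit and 22.3 in the 327 at or above it.

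Of the 97 members, 77 reached the minimum for the comparison of epithelium with fibroblasts, and 53 of them were at least 2-fold higher in the epithelium and 10 at least 2-fold lower. Over all 15335 genes counted, 33.1% were at least 2-fold higher and 16.7% lower, so that the members' 68.8% higher lies above the background and their 13.0% lower near it. The median log2 ratio was 2.23 over the members counted and 0.48 over all genes counted. The median cell had 3218 genes in the epithelium and 2635 in the fibroblasts. A member that reached the minimum only through its epithelial counts had to be higher there, so these counts describe the members counted, not all members. The same limit holds for each comparison below.

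The 5 largest ratios toward the epithelium belonged to Sult1b1 (6.01, 1.92 against 0.0201), Cyp2c55 (5.71, 3.87 against 0.0641), Cyp2c68 (5.67, 0.743 against 0.00481), Ugt2b34 (5.54, 1.73 against 0.0273) and Sult1d1 (5.49, 3.54 against 0.0690). For each of the 5, fibroblasts held a smaller share of the epithelial level than they did for the epithelial marker sum. In the reporter library, Cyp2c55 and Ugt2b34 were counted in 0 of 4243 fibroblasts, which allows a share of cells with a count of up to 0.0707% at this depth and sets no limit on cells that express the gene; Sult1b1 was counted in 1 and Sult1d1 in 3 of them. The 5 largest toward the fibroblasts were Cyp27a1 (-2.57, 0.0745 against 0.493), Cyp2d22 (-2.47, 0.0517 against 0.331), Sult5a1 (-2.14, 0.0036 against 0.0501), Cyp2c44 (-2.09, 0.00481 against 0.0529) and Cyp7b1 (-2.03, 0.0040 against 0.0473). Cyp27a1 is the mitochondrial sterol 27-hydroxylase and Cyp7b1 the oxysterol 7-alpha-hydroxylase. The remaining lower members were Cyp20a1, Cyp2j9, Gstm1, Gstt1 and Ces1d.

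**Figure D2:**
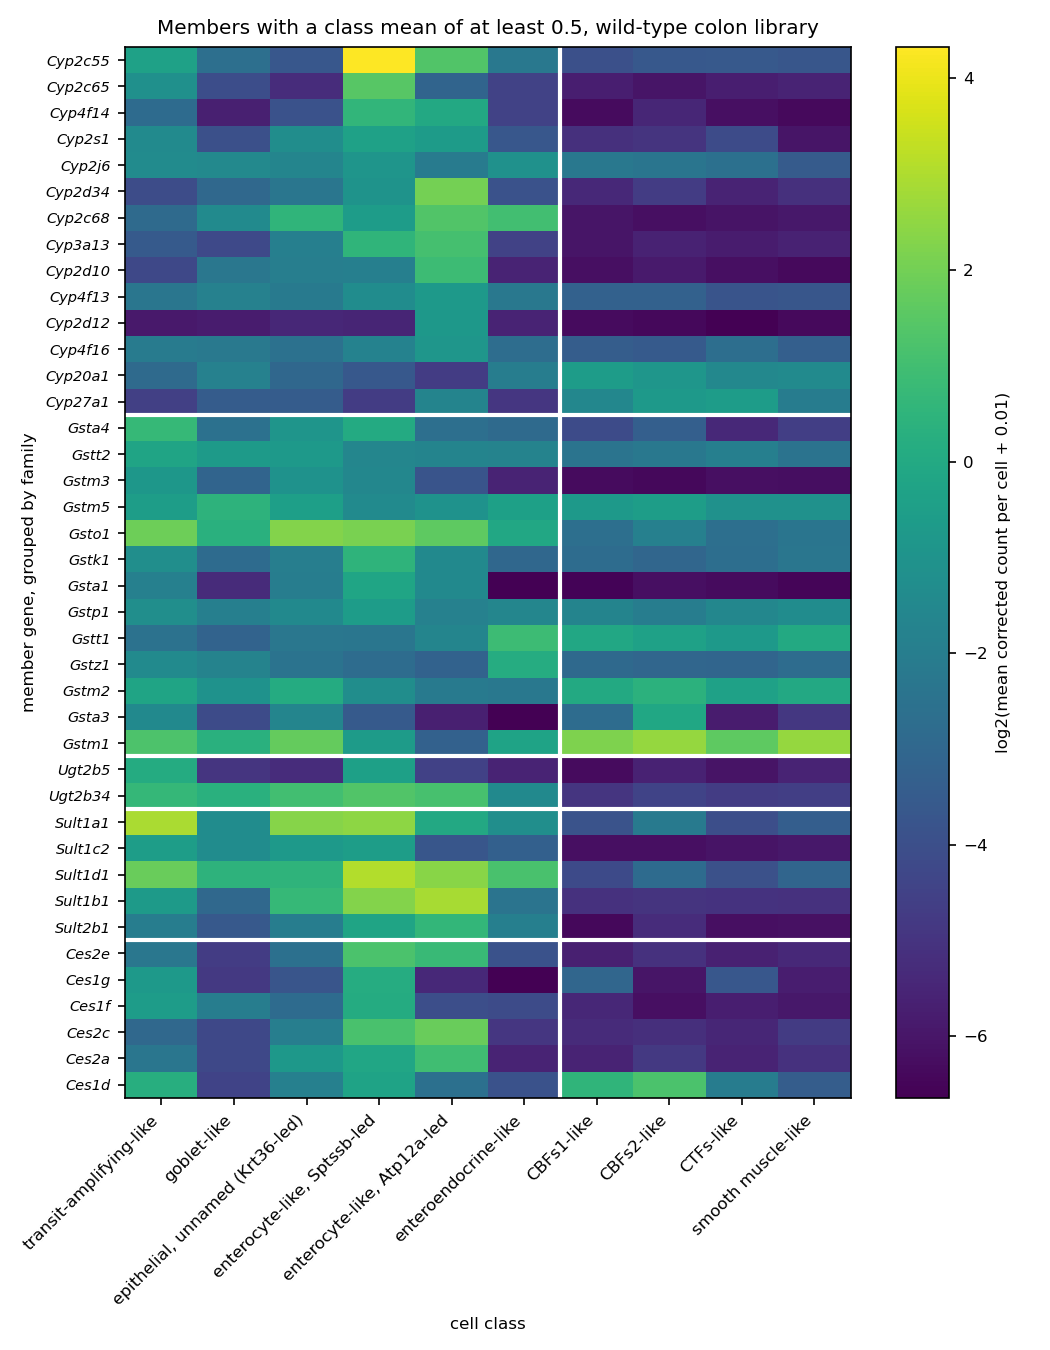
Log2 of the mean corrected count per cell plus 0.01 (colour) of the 40 members whose mean reached 0.5 in at least 1 class, by cell class (columns) and family (rows, parted by white lines). The white vertical line parts epithelium from stroma; 34 of the 40 have their highest mean left of it, and Gstm1, Gstm2, Gsta3, Ces1d, Cyp20a1 and Cyp27a1 right of it.

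Many members were counted at low levels. In 31 of the 97 the highest class mean stayed under 0.1 corrected counts per cell, 26 lay between 0.1 and 0.5, and 40 reached 0.5 in at least 1 of the 10 epithelial and stromal classes compared. Among the low ones were Cyp1b1 with 15 corrected counts in the whole library, Cyp11a1, the side-chain cleavage enzyme that opens steroid synthesis, with 18, and both vitamin D enzymes, Cyp27b1 with 6 and Cyp24a1 with 5; these 4 were picked for their known roles after the values were seen. The 6 Ugt1a genes lay between 5 and 358 corrected counts. In 5 of the 6, every stretch of 50 bases in the last 500 bases of the longest transcript also occurs in another member. The exception is Ugt1a7c, the gene with 358 counts, though the shared stretches of Ugt1a6b occur in Ugt1a7c too. Cell Ranger leaves out reads that fit more than 1 gene, so a low Ugt1a count from reads left out cannot be told apart from a low level. More than 50% of that window was shared in 10 members, 2 of them among the 40, namely Gstp1 (75.2%, with Gstp2) and Cyp2c68 (51.2%, with Cyp2c40).

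Among the phase I enzymes, the Cyp2c genes on chromosome 19 differed widely between the epithelial classes. Cyp2c55, an arachidonic and linoleic acid hydroxylase (chr19:39007019-39042693, plus strand, mm10), averaged 20.1 corrected counts in Sptssb-led and 2.51 in Atp12a-led enterocyte-like cells, 0.755 in transit-amplifying-like, 0.198 in enteroendocrine-like, 0.150 in goblet-like and 0.0688 in Krt36-led cells. From CBFs1-like, CBFs2-like, CTFs-like and smooth muscle-like to pericyte-like, blood endothelial-like and glia-like cells it stayed between 0.0508 and 0.0745. The level outside the epithelium was thus alike in all of those types, and the Krt36-led epithelial cells did not stand above it. Cyp2c55 was counted in 361 of the 420 Sptssb-led cells (86.0%, exact 95% interval 82.3% to 89.1%; 84.8% after each cell was thinned to 5000 counts) and in 4.05% of blood endothelial-like cells (3.38% thinned). Up to 97 counts fell in a single Sptssb-led cell.

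Cyp2c65, its neighbour (chr19:39061015-39093944, plus strand), averaged 2.75 in Sptssb-led cells, 0.447 in transit-amplifying-like and 0.105 in Atp12a-led cells, and from 0.0159 to 0.05 in goblet-like, enteroendocrine-like and Krt36-led cells. Cyp2c68, further along the same locus on the minus strand (chr19:39688834-39741054), had another order: 2.51 in Atp12a-led, 2.01 in enteroendocrine-like, 1.43 in Krt36-led, 0.664 in Sptssb-led, 0.369 in goblet-like cells and 0.128 in transit-amplifying-like cells. Within 1 locus of 880 kb and 7 members, the first pair was thus highest in Sptssb-led cells and Cyp2c68 in Atp12a-led cells, and Cyp2c68 was also high in enteroendocrine-like and Krt36-led cells, which held little of the pair.

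Because these 3 neighbours differ in the cells that hold them, the 250 bases before their annotated starts are shown, with those of Gsta3, which is highest in CBFs2-like cells (described below). The sequences are from RefSeq on GRCm38.p6, which gave an entry for 80 of the 97 members. Capitals mark 5 short patterns: CAAAGTCC (a core of sites for HNF4, an epithelial nuclear receptor), GTTAAT (part of the HNF1 site), TGACNNNGC (the core of the antioxidant response element) and GCGTG (the core of the dioxin response element), each on both strands, and TATAAA on the strand shown.
Cyp2c55, chr19:39006769-39007018, plus strand: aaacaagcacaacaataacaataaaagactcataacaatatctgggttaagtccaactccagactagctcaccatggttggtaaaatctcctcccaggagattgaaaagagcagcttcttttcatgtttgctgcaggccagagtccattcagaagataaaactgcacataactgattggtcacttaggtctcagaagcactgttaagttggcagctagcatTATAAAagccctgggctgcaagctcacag
Cyp2c65, chr19:39060756-39061005, plus strand: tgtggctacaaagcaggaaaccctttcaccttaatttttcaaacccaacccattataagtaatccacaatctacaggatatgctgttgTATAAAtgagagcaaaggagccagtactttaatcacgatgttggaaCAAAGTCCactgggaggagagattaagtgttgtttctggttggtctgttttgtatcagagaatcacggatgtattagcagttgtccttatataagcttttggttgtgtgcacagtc
Cyp2c68, chr19:39741102-39741351, minus strand: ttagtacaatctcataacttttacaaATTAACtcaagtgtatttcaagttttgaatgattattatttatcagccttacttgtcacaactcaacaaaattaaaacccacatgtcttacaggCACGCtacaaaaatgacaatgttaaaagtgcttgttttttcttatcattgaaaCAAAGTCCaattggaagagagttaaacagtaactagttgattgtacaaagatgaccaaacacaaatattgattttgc
Gsta3, chr1:21240335-21240584, plus strand: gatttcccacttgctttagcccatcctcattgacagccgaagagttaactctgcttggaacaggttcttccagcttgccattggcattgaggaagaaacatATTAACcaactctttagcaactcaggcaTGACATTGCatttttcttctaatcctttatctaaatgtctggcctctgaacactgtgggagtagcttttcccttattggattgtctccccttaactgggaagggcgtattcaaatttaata
Cyp2c65 and Cyp2c68, which peak in different clusters, both hold CAAAGTCC, and Cyp2c55 does not. Of the 80 member promoters, 7 hold it (8.75%), against 1.22% of the 27025 gene promoters in the reference. GTTAAT was in 10 member promoters (12.5%, against 6.52%), TATAAA in 7 (8.75%, against 8.12%), GCGTG in 15 (18.8%, against 28.2%) and TGACNNNGC in 3 (3.75%, against 10.1%). A match says only that these letters stand in this window.

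The Cyp2d genes of chromosome 15 marked the Atp12a-led cells. Cyp2d34 (chr15:82615965-82620946) averaged 4.15 there and 0.493 in the Sptssb-led cells, and between 0.0485 and 0.185 in the rest of the epithelium. It was counted in 205 of the 210 Atp12a-led cells (97.6%, exact 95% interval 94.5% to 99.2%; 85.7% thinned). Cyp2d10 averaged 1.81 against 0.260, Cyp2d12 0.562 against 0.0119 and Cyp2d9 0.419 against 0.0190. Of the 8 Cyp2d members, 6 were highest in the Atp12a-led class, but Cyp2d11 and Cyp2d40 among them had only 10 and 6 corrected counts in the whole library. Cyp2d26 was highest in Sptssb-led cells (0.362) and Cyp2d22 in CBFs1-like cells (0.382). Between 18.9% and 25.7% of the 50-base stretches at the 3 prime ends of Cyp2d9, Cyp2d10, Cyp2d11, Cyp2d12, Cyp2d26, Cyp2d34 and Cyp2d40 are shared with another member, so the split of counts among them is uncertain.

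Other cytochromes P450 were counted in both enterocyte-like clusters. Cyp3a13, of the main drug-oxidising subfamily (chr5:137892932-137921619), averaged 1.46 in Sptssb-led and 2.10 in Atp12a-led cells, 0.259 in Krt36-led cells and at most 0.0773 in the remaining ones of the epithelium. Cyp4f14, a fatty acid and eicosanoid omega-hydroxylase, averaged 1.48 and 0.981 in the 2 clusters and at most 0.132 elsewhere in the epithelium. Cyp2s1 averaged 0.769 and 0.638, with 0.405 in Krt36-led and 0.367 in transit-amplifying-like cells. Cyp4f13, Cyp4f16 and Cyp2j6 were broader, at 0.14 to 0.58 in every epithelial class.

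On the stromal side the cytochrome levels were low. Cyp27a1 (chr1:74713574-74737892) averaged 0.667 in CTFs-like, 0.586 in CBFs2-like and 0.327 in CBFs1-like cells, with 0.232 in smooth muscle-like cells; in the epithelium it reached 0.3 in Atp12a-led cells and lay from 0.0233 to 0.0828 elsewhere. Cyp20a1, a P450 without a known substrate, averaged 0.660 in CBFs1-like cells and 0.538 in CBFs2-like cells, followed by smooth muscle-like cells at 0.367 and CTFs-like cells at 0.341. Cyp2c44 stood out of its subfamily, with 0.0821 in CTFs-like and 0.0571 in CBFs1-like but 0.0036 in CBFs2-like cells, and at most 0.0143 in the epithelium.

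The carboxylesterases are described by locus. In the Ces2 locus of chromosome 8, Ces2c averaged 2.27 in Sptssb-led and 3.47 in Atp12a-led cells, Ces2e 2.29 and 1.70, and Ces2a 0.886 and 1.94. In transit-amplifying-like cells these 3 averaged 0.119, 0.191 and 0.190, and in goblet-like cells 0.0281 to 0.0422. In the Ces1 locus, Ces1f averaged 1.06 in Sptssb-led, 0.651 in transit-amplifying-like and 0.0524 in Atp12a-led cells, and Ces1g, which acts on triglycerides and cholesteryl esters, averaged 1.10, 0.602 and 0.0143. The Ces1 pair was thus counted in the cells that also held Cyp2c65, and was low in the Atp12a-led cells where Ces2c was highest.

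Ces1d (chr8:93166068-93197838), an esterase and triglyceride hydrolase, was counted at high levels on both sides. It averaged 2.35 in CBFs2-like and 1.44 in CBFs1-like cells, 1.15 in transit-amplifying-like, 0.817 in Sptssb-led, 0.267 in Krt36-led, 0.235 in CTFs-like, 0.157 in Atp12a-led and 0.0359 in goblet-like cells. It was counted in 40.9% of CBFs2-like cells (exact 95% interval 36.8% to 45%; 32.9% thinned) and in 61.6% of transit-amplifying-like cells (58.0% to 65.1%; 41.4% thinned), against 2.34% of goblet-like cells. The larger mean with the smaller share shows that a part of the CBFs2-like cells held many counts, up to 91 in 1 cell. At a finer clustering (resolution 0.8) the CBFs1-like clusters held 816 cells led by Sfrp2 with a mean of 0.479 and 323 cells led by Adamtsl2 with a mean of 3.87.

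Among the phase II enzymes, the sulfotransferases had an epithelial sum close to that of the Gst genes. Sult1d1, a sulfotransferase of catecholamines and eicosanoids (chr5:87554645-87569027), averaged 8.32 in Sptssb-led, 5.12 in Atp12a-led, 3.54 in transit-amplifying-like, 2.22 in enteroendocrine-like, 1.40 in Krt36-led and 1.34 in goblet-like cells. Sult1b1, which acts on phenols and thyroid hormone (chr5:87513339-87538195), averaged 7.43 in Atp12a-led, 4.89 in Sptssb-led, 1.64 in Krt36-led, 0.629 in transit-amplifying-like, 0.174 in enteroendocrine-like and 0.119 in goblet-like cells. Sult1a1, the main phenol sulfotransferase (chr7:126672865-126676432), was highest in transit-amplifying-like cells at 7.71, followed by Sptssb-led at 5.49 and Krt36-led cells at 5.07, with 0.986 in Atp12a-led, 0.419 in enteroendocrine-like and 0.391 in goblet-like ones. At the finer clustering Sult1a1 averaged 8.63 in the stem-like cluster and 5.54 in the transit-amplifying-like cluster. The 3 genes thus had their peaks in 3 different epithelial classes, and goblet-like cells were the lowest of the 6 classes for each. Sult2b1, which sulfates cholesterol, averaged 1.52 in Atp12a-led and 0.826 in Sptssb-led cells. Sult1c2 averaged 0.685 in transit-amplifying-like, 0.671 in Sptssb-led and 0.0667 in Atp12a-led cells.

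Of the glucuronosyltransferases only Ugt2b34 and Ugt2b5 reached 0.5. Ugt2b34 (chr5:86889767-86906937) was broad, with 2.50 in Sptssb-led, 2.20 in Atp12a-led, 2.02 in Krt36-led, 1.59 in transit-amplifying-like, 1.24 in goblet-like cells and 0.360 in enteroendocrine-like cells. Ugt2b5 (chr5:87124960-87140318) averaged 1.08 in transit-amplifying-like and 0.750 in Sptssb-led cells, with 0.0116 to 0.0333 in the rest of the epithelium. Ugt2b35 followed transit-amplifying-like (0.482) and Krt36-led cells (0.352). At the finer clustering there were a stem-like cluster of 536 cells, in which Ugt2b5 averaged 1.20, and a transit-amplifying-like cluster of 227 cells, in which it averaged 0.797, so that both parts held it.

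The glutathione S-transferases made up most of the members' stromal sum. Gstm1 (chr3:108012255-108017973) averaged 6.06 in smooth muscle-like cells and, among fibroblasts, 5.94 in CBFs2-like, 4.54 in CBFs1-like and 3.08 in CTFs-like cells. Epithelial means were 3.34 in Krt36-led, 2.39 in transit-amplifying-like, 1.23 in goblet-like, 0.814 in enteroendocrine-like, 0.633 in Sptssb-led and 0.0952 in Atp12a-led cells. Over all cells it was thus lowest in the 2 absorptive clusters among the epithelial, fibroblast and smooth muscle classes. In cells below 10% mitochondrial counts it averaged 1.31 in Sptssb-led, 1.19 in goblet-like and 0.15 in Atp12a-led cells. Under that limit the Sptssb-led cells did not lie below the goblet-like ones. At or above the limit Sptssb-led cells averaged 0.440. Gstm2 followed Gstm1 with 1.32 in CBFs2-like and 0.219 in Atp12a-led cells. By contrast, Gstm3 of the same locus was epithelial, at 0.549 in transit-amplifying-like and 0.479 in Krt36-led cells and at most 0.0038 in the 4 stromal classes. Among the epithelial, fibroblast and smooth muscle classes Gstm5 was highest in goblet-like cells (1.37).

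Gsto1, of the omega class (chr19:47854970-47864790), was high throughout the epithelium: 4.82 in Krt36-led, 4.38 in Sptssb-led, 3.79 in transit-amplifying-like and 3.06 in Atp12a-led cells, then 1.23 in goblet-like and 0.954 in enteroendocrine-like ones, against 0.149 to 0.265 in the stromal classes. Gsta4, which clears lipid aldehydes, averaged 1.64 in transit-amplifying-like and 1.05 in Sptssb-led cells and 0.152 in Atp12a-led cells, and Gstk1 1.39 in Sptssb-led and 0.419 or less in the rest of the epithelium. Gsta1 averaged 0.869 in Sptssb-led cells. Gstt1 and Gstz1, the latter an enzyme of tyrosine breakdown, were highest in enteroendocrine-like cells at 1.84 and 1.10; Gstt1 also averaged 0.578 to 1.01 in the stromal classes. Gstt2 averaged 0.836 in transit-amplifying-like cells and Gstp1 0.650 in Sptssb-led cells, with 0.240 to 0.413 for Gstp1 in the other epithelial, fibroblast and smooth muscle classes.

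Gsta3 (chr1:21240589-21265661), known for steroid isomerase activity beside conjugation, averaged 0.911 in CBFs2-like cells, 0.359 in transit-amplifying-like, 0.307 in Krt36-led, 0.135 in CBFs1-like and only 0.0076 in CTFs-like cells. It was counted in 43.2% of CBFs2-like cells (exact 95% interval 39.0% to 47.4%; 34.1% thinned) and in 0.758% of CTFs-like cells (0.279% to 1.64%).

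From transit-amplifying-like to enterocyte-like cells, 25 of the 68 members counted were at least 2-fold higher and 13 lower. The background over 12579 genes was 10.2% higher and 29.4% lower, so the members leaned toward enterocyte-like cells where genes in general leaned away (medians 0.40 and -0.46). The 5 largest rises were those of Cyp2d34 (4.88, 1.71 against 0.0485), Ces2c (4.38, 2.67 against 0.119), Cyp3a13 (4.27, 1.67 against 0.0773), Cyp2c55 (4.22, 14.2 against 0.755) and Cyp2d10 (3.92, 0.778 against 0.0419). Toward the transit-amplifying-like cells stood Gsta3 (-2.53, 0.0540 against 0.359), Gstm1 (-2.37, 0.454 against 2.39), Cyp39a1 (-2.31, 0.0667 against 0.370), Ugt2b35 (-2.25, 0.0937 against 0.482) and Gstz1 (-1.48, 0.125 against 0.368). By family, 15 of 27 Cyp genes counted were higher and 3 lower, but 3 of 20 Gst genes higher and 7 lower, and none of the 7 Ugt genes higher and 2 lower. Without cells at or above 10% mitochondrial counts, which leaves 113 enterocyte-like cells, 6 instead of 13 members were lower. This count comes without the members that reached the minimum or the share over all genes under that limit. It therefore cannot be set against the background. Enterocyte-like cells had a summed level of 12.2 for 5 red blood cell markers, against 0.242 among transit-amplifying-like cells and 1.39 among goblet-like ones, and its part in these counts was not tested.

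Against goblet-like cells, 42 of 69 members counted were at least 2-fold higher in enterocyte-like cells, beside 11.2% of all genes, and 7 lower, beside 23.9%. The 5 largest were Cyp2c55 (6.47, 14.2 against 0.150), Cyp4f14 (6.09, 1.31 against 0.0094), Ces2e (5.79, 2.09 against 0.0281), Ces2c (5.68, 2.67 against 0.0422) and Sult1b1 (5.48, 5.73 against 0.119). Higher in goblet-like cells were Cyp20a1 (-2.07), Gstm5 (-1.75), Cyp2j9 (-1.58) and Gstm1 (-1.42), while Ces1c averaged 0.0313 in goblet-like cells and was counted in no enterocyte-like cell, at least 6.56-fold higher against a floor of 3 counts. Of 10 Ces genes counted, 9 were higher in enterocyte-like cells.

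The comparison between the 2 enterocyte-like clusters was added after the clusters were seen. Of 63 members counted, 12 were at least 2-fold higher in Atp12a-led than in Sptssb-led cells, beside 5.92% of all genes, and 23 lower, beside 9.83%. Highest in the Atp12a-led cells relative to the others were Cyp2d12 (4.71), Cyp2d9 (3.88), Cyp2d34 (3.05), Cyp27a1 (3.01, 0.3 against 0.0286) and Cyp2d10 (2.76). On the other side were Ces1g (-5.51), Cyp2c65 (-4.59), Ugt2b5 (-4.13) and Ces1f (-4.10), while Cyp4b1 averaged 0.133 in Sptssb-led cells and was not counted in any of the 210 Atp12a-led cells, at least 9.33-fold lower by the same floor. Ces1g had 3 counts in the Atp12a-led cells, which puts its fold at 77.0 with a counting interval of 26.2 to 375. Sult1a1 (-2.47), Gsta4 (-2.70), Sult1c2 (-3.15) and Gstm1 (-2.61) were also lower in the Atp12a-led cells. Both clusters carried the enterocyte list (11 and 10 of 12 markers) at medians of 2932 and 2900 genes with corrected counts per cell. The red blood cell marker sum was 20.2 in Atp12a-led and 8.24 in Sptssb-led cells, and its part was not tested.

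**Figure D3:**
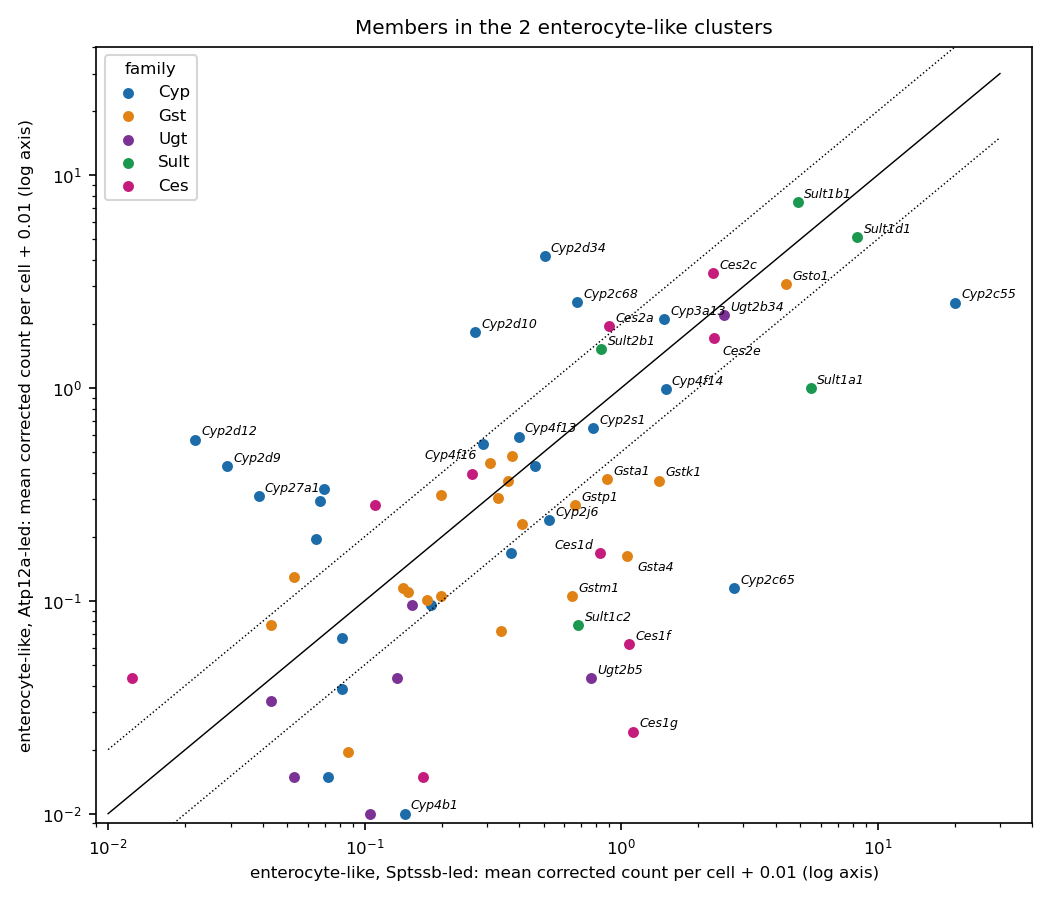
Mean corrected count per cell plus 0.01 of each member in Sptssb-led (horizontal, log axis) and Atp12a-led enterocyte-like cells (vertical, log axis), coloured by family, with lines at equality (solid) and at 2-fold (dotted). Cyp2d9, Cyp2d10, Cyp2d12 and Cyp2d34 lie above the upper line and Cyp2c55, Cyp2c65, Ces1f, Ces1g, Ugt2b5 and Sult1a1 below the lower one.

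Neighbouring members often peaked in different classes. Annotation (GENCODE M21, mm10) placed 96 members, all but Cyp2c44, and 73 of them in 16 loci of at least 2 members within 1 Mb. The Ugt2b and Sult1 locus on chromosome 5 (7 members over 679 kb) held members with peaks in transit-amplifying-like, Sptssb-led and Atp12a-led cells. The Gstm locus on chromosome 3 (7 members over 149 kb) held epithelial peaks for 5 genes and stromal peaks for Gstm1 and Gstm2, which lie next to each other. In the Ces1 locus (317 kb) Ces1d peaked in CBFs2-like cells, with Ces1f and Ces1g in Sptssb-led cells. In the Cyp2d locus (424 kb) 6 of 8 and in the Ces2 locus (235 kb) 4 of 6 members peaked in Atp12a-led cells, and in the Ugt1a locus 5 of 6 peaked in transit-amplifying-like cells, some of them on few counts.

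**Figure D4:**
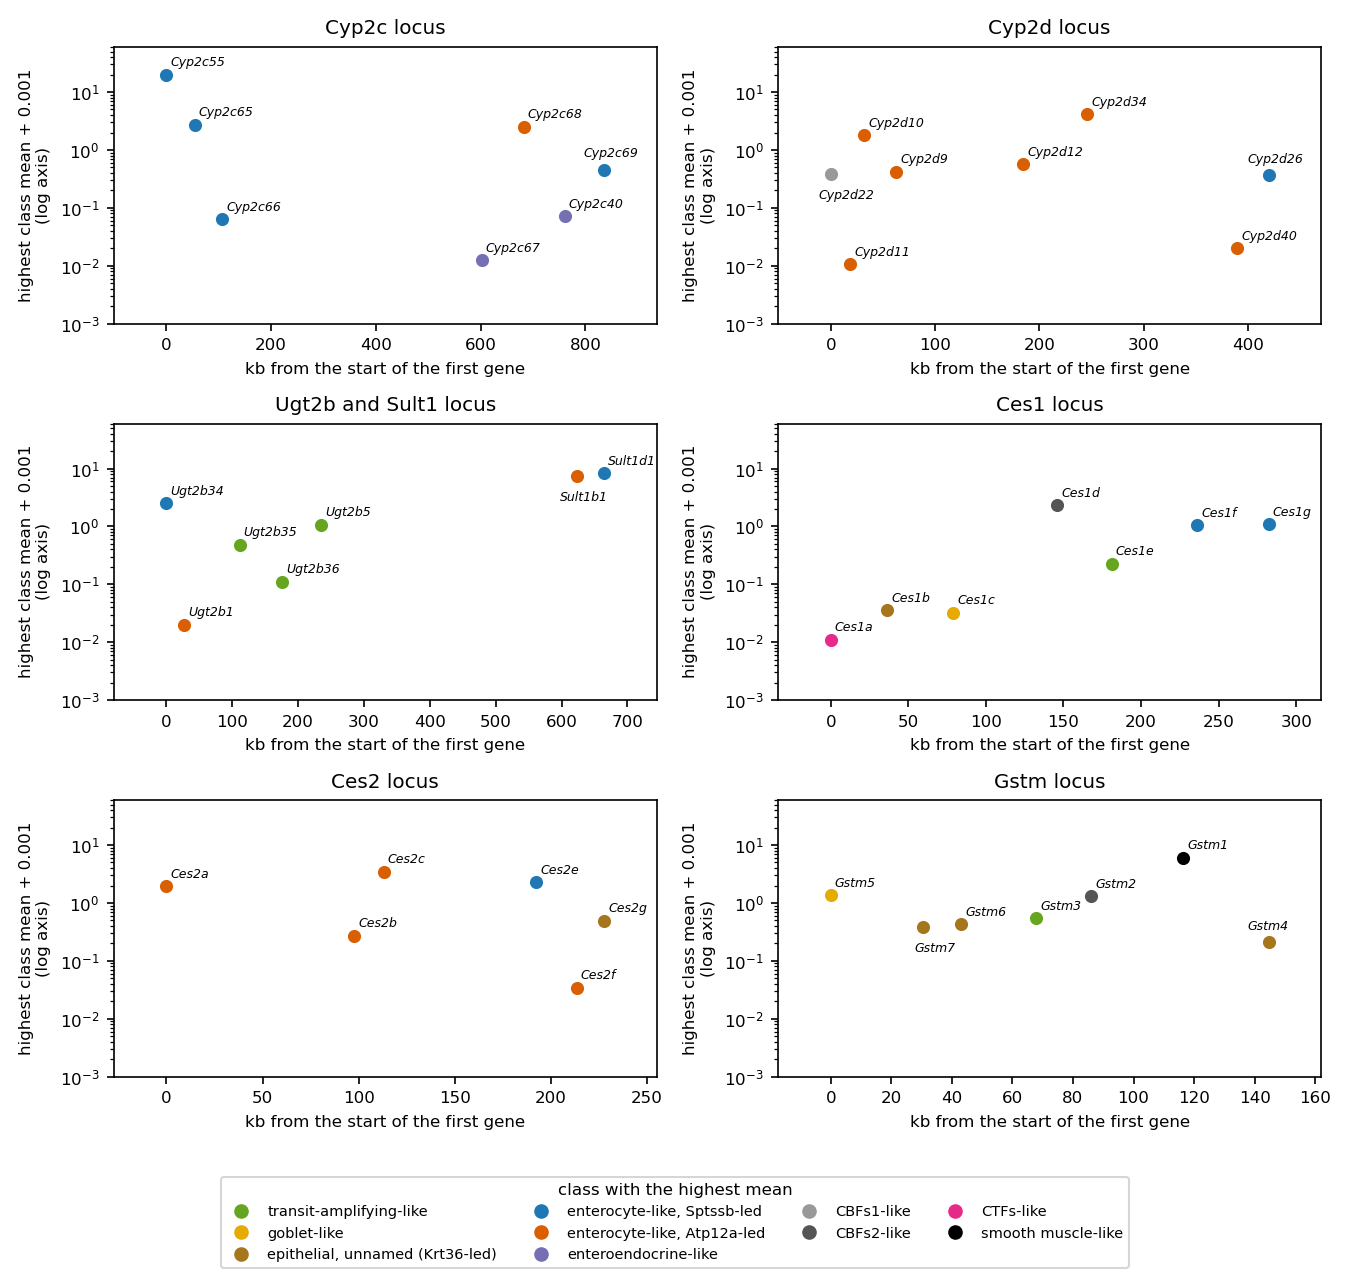
Highest class mean plus 0.001 (vertical, log axis) of each member in 6 loci against the distance of its start from that of the first gene (horizontal, kb), coloured by the class with that mean. Atp12a-led cells lead 6 of 8 genes in the Cyp2d locus, with Cyp2d11 and Cyp2d40 on few counts. The Gstm and Ces1 loci hold peaks of several classes, stromal ones among them.

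Between crypt top and crypt bottom fibroblasts most members counted differed by less than 2-fold. In the wild-type library none of the 45 counted was at least 2-fold higher in CTFs-like than in CBFs-like cells, beside 5.12% of all genes. Of the 45, 8 were lower (17.8%), beside 7.99% of all genes. A member that reached the minimum only through its CBFs-like counts had to be lower here, so these shares describe the members counted. The lower ones were Gsta3 (-4.51, 0.0076 against 0.392), Ces1d (-2.84, 0.235 against 1.74), Sult5a1 (-2.71, 0.0025 against 0.0723), Cyp2j9 (-1.64), Gsta4 (-1.56, 0.0139 against 0.0605), Ces2g, Cyp39a1 and Ugt1a7c. With 2 counts in CTFs-like cells, the Sult5a1 fold without the added 0.01 was 28.6, with a counting interval of 7.76 to 239. Ugt1a7c had 1 count there, a fold of 10.7 with a counting interval of 1.74 to 441. Ces2g had 0 counts there, at least 3.88-fold lower against a floor of 3 counts. In the reporter library 5 of 37 members counted were higher in CTFs-like cells (13.5%), beside 4.82%, and 2 lower (5.4%), beside 5.05%. Higher were Ces1g (1.91, 0.157 against 0.0344), Cyp2s1 (1.07), Cyp4f16 (1.03), Cyp27a1 (1.02, 0.190 against 0.0888) and Cyp2c44 (1.01), and lower were Gsta3 (-1.84, 0.0016 against 0.0314) and Ces1d (-1.02, 0.215 against 0.445). Gsta3 had 1 count in these CTFs-like cells, a fold without the added 0.01 of 20 with a counting interval of 3.52 to 797. Gsta3 and Ces1d were thus lower in CTFs-like cells in both libraries, and no member was past 2-fold in opposite directions. The Ces1d ratio of the reporter library turned to 0.35 when the members were kept among the clustering genes, so its direction there depends on that choice.

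Within the crypt bottom fibroblasts, 5 of 43 members were at least 2-fold higher in CBFs2-like than in CBFs1-like cells, beside 6.09% of all genes, and 3 lower, beside 4.54%. Higher were Gsta3 (2.67, 0.911 against 0.135), Sult5a1 (1.94, 0.153 against 0.0325), Sult1a1 (1.67, 0.215 against 0.0606) and Sult1d1 (1.36, 0.133 against 0.0457), while Ces2g averaged 0.0444 and was counted in no CBFs1-like cell, at least 16.9-fold higher against the floor. Lower were Ces1g (-3.01, 0.0053 against 0.113), Cyp2c44 (-2.31, 0.0036 against 0.0571) and Gstp2 (-1.12). The counting interval of the fold was 7.11 to 104 for Ces1g (21.3, from 3 counts in CBFs2-like cells) and 4.27 to 135 for Cyp2c44 (16.1, from 2 counts). The epithelial marker sum was 6.80 in CBFs2-like and 4.10 in CBFs1-like cells, and its part in the Sult1a1 and Sult1d1 values was not tested. In the reporter library the comparison, added later, had 4 of 34 members higher, beside 3.24%, and 5 lower, beside 5.88%. Gsta3 (3.11, 0.118 against 0.0047), Sult5a1 (2.09, 0.0928 against 0.0142) and Sult1a1 (1.34, 0.0200 against 0.0018) were higher again. Cyp2c44 was lower again (-1.29, from 1 count). Without the added 0.01 the Cyp2c44 fold was 14.8, with a counting interval of 2.54 to 598. Ces1g was counted in no CBFs2-like cell of that library and averaged 0.0450 in its CBFs1-like cells, at least 12.8-fold lower by the floor. The remaining ones were Cyp2u1 (1.17), Cyp39a1 (-1.27), Cyp4v3 (-1.16) and Cyp2j9 (-1.07). The libraries differ in mice, kit and sort, and the 2 sets of ratios come from separate clusterings.

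**Figure D5:**
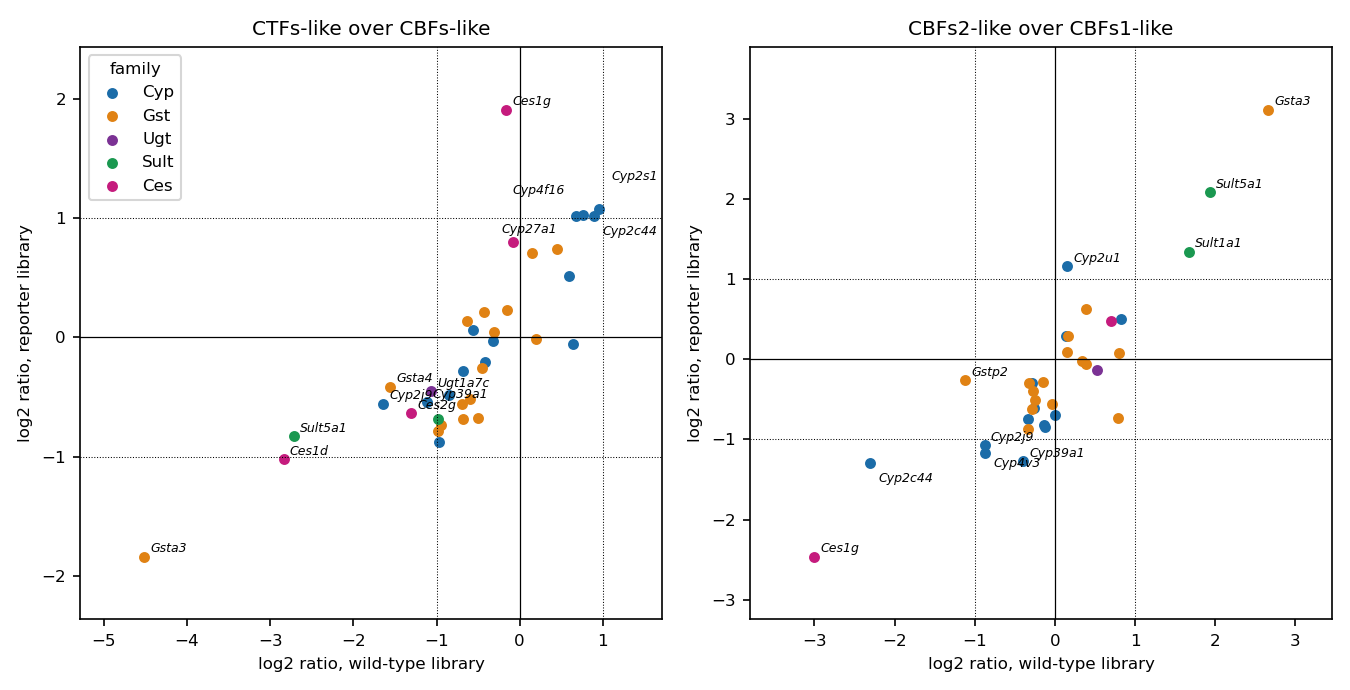
Log2 ratio of class means in the wild-type (horizontal) and the reporter library (vertical) for members counted in both, for CTFs-like over CBFs-like (left, 37 members) and CBFs2-like over CBFs1-like cells (right, 34 members), coloured by family, with dotted lines at 2-fold. Gsta3 and Ces1d lie in the lower left corner of the left plot, and Gsta3, Sult5a1 and Sult1a1 in the upper right of the right one.

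Smooth muscle-like cells were within 2-fold of the fibroblasts for 37 of the 49 members counted. At least 2-fold higher were 3 (6.12%), beside 5.33% of all genes, and 9 were lower (18.4%), beside 10.1%. Higher were Gstp2 (1.23, 0.0896 against 0.0325), Gstm7 (1.09) and Cyp7b1 (1.02, 0.106 against 0.0473). The largest lower ratios were those of Ces1d (-3.75, 0.0843 against 1.26), Gsta3 (-3.03), Sult5a1 (-2.31), Ces1g (-2.20) and Cyp2s1 (-1.32). The Sult5a1 fold of 23.8 rests on 2 counts, with a counting interval of 6.45 to 199. Gstm1, at 6.06 against 4.39, differed by less than 2-fold.

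The genes that work with these enzymes were read from 6 fixed lists. Their counts stand beside the background of this comparison, 33.1% of all genes at least 2-fold higher in the epithelium and 16.7% lower, and several lie near it. Of the 8 electron donors, 2 were at least 2-fold higher in the epithelium and 2 in fibroblasts. Of the cytochrome b5 genes, Cyb5b was higher in the epithelium (log2 ratio 1.78, 1.40 in Sptssb-led cells) and Cyb5a in fibroblasts (log2 ratio -1.90). The epithelium held both at a like level, 0.96 for Cyb5a and 0.99 for Cyb5b, while fibroblasts held 3.61 and 0.281. Por, the reductase that feeds microsomal P450s, differed by -0.30. Of 22 other oxidation, reduction and hydrolysis enzymes, 10 were higher in the epithelium and 5 in fibroblasts. Examples are Maoa (9.69 in Atp12a-led and 7.69 in Sptssb-led cells, log2 ratio 3.84) and Fmo2, a flavin monooxygenase (log2 ratio -5.54). Of 16 genes of glutathione and other conjugation, 10 were higher in the epithelium. Mgst3, a microsomal glutathione transferase, averaged 24.5 and 25.1 in the 2 enterocyte-like clusters and 0.504 to 0.588 in the 3 fibroblast classes, and Papss2, which makes the sulfate donor of the Sult enzymes, averaged 2.93 in Sptssb-led cells.

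Of 18 receptors and regulators, 9 were higher in the epithelium and 4 in fibroblasts, beside the same 33.1% and 16.7% of all genes. Hnf4a averaged 1.99 and 2.43 in the 2 enterocyte-like clusters (log2 ratio 5.15) and the vitamin D receptor Vdr 1.54 and 1.92 (5.06), while the glucocorticoid receptor Nr3c1 averaged 2.78 and the aryl hydrocarbon receptor Ahr 1.07 in CTFs-like cells (-2.09 and -1.79). Of 12 transporters, 5 were higher in the epithelium, among them the efflux pump Abcb1a (4.86 in Atp12a-led cells), and 3 in fibroblasts, among them Slco2b1 (1.00 in CBFs1-like cells). Of 14 sterol and steroid genes outside the families that were in the table, 7 were higher in the epithelium and 2 in fibroblasts. The 2 glucocorticoid enzymes stood on opposite sides: Hsd11b2, which inactivates, averaged 11.7 in goblet-like and 5.52 in Sptssb-led cells (log2 ratio 6.15), and Hsd11b1, which reactivates, 1.67 in CBFs1-like cells and 1.53 in CBFs2-like cells (log2 ratio -5.84) but 0.0215 in CTFs-like cells.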

How the data were processed

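Single-cell RNA was sequenced from 2 libraries, wild-type colon and Pdgfra-H2B-eGFP colon, each of 3 pooled mice. Per the labels and the study's methods, the authors aligned the reads to mm10 with Cell Ranger, filtered cells and normalised them in Seurat 3.1 under R 3.6.2 with SCTransform. The deposited values of one table per library are corrected counts, whole numbers fitted to a common depth (used here as a score, not as raw counts), and those of the other are their natural log after adding 1. No count model was therefore fitted across genes, and with 1 library per group no test was made; the intervals and floors treat corrected counts as if they were counted reads, which is an approximation.

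The corrected counts were clustered in Seurat 5.3.0 (3000 variable features less the members, 30 principal components, Louvain resolution 0.45 for wild-type and 0.3 for reporter cells). Clusters were named where a marker list reached a log2 fold of 1 with at least 5 markers and 50% of the list at 2-fold and in 10% of cells; this naming rule was set after the clusters were seen. In the reporter library, further clusters in which the CBFs1 markers were at least 2-fold above the CBFs2-like and CTFs-like cells, with at least 50% of their fibroblast marker sum, were called CBFs1-like. The members and lists were chosen with earlier results of these data known. Named are members with a class mean of at least 0.5 and the 5 largest ratios in each direction of each comparison. Shares carry exact (Clopper-Pearson) 95% intervals, and a count of 0 allows 3 cells; both cover counting error only. Promoters are from RefSeq and positions from GENCODE M21. Scrublet in scanpy 1.11.5 marked 7 of 7495 wild-type and 5 of 4409 reporter cells, too few for the caller to have worked in the first, so doublets were kept and 2 doublet filters tried as alternatives. The libraries shared 1 cell barcode. A gene of the conjugation list is not reported here. The script for ratios was tested on simulated data.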

Additional observations from a re-analysis of the deposited data

Results flagged for a closer look

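The reporter library held a cluster of 52 cells with 10 of 10 epithelial markers raised, which no comparison used, and members of the epithelium were counted in them above their level in the fibroblasts of that library. Sult1d1 averaged 0.731 corrected counts per cell there against 0.0007 in the fibroblasts, Sult1a1 0.577 against 0.0052, and Cyp2c55 0.385 against 0, counted in none of the 4243 fibroblasts. The part of doublets and of cells that passed the GFP gate was not tested. No group held enough libraries for a search for outlying samples.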

How the results depend on the processing

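Of the counts of members past 2-fold and the family sums, 193 values under the alternatives kept their direction and stayed within 1.5 times the reported count, or moved little, and 49 moved; of the single-gene ratios 4757 kept, 409 moved and 4 turned. No paired analysis was possible because each group is 1 library and no result comes from a test. Enterocyte-like over transit-amplifying-like had 8 members lower with the members kept among the clustering genes, 6 without cells at or above 10% mitochondrial counts, 8 at a pseudocount of 0.1 and 4 at 4-fold. Without the high-mitochondrial cells the family ratio of epithelium over fibroblasts was 0.819 for Cyp and 0.746 for Ces. In enterocyte-like over transit-amplifying-like, Cyp20a1 (0.22) and Gstm3 (0.084) turned without those cells, as did Cyp2j9 (0.035) with each cell thinned to 1000 counts. The counts in this section come without the members that reached the minimum or the share over all genes under each alternative. They therefore cannot show a change of the members against the background. Thinning lowers the counts, so fewer members can reach the minimum of 20. It left 35 members higher and 6 lower in epithelium over fibroblasts, and 1 lower in enterocyte-like over goblet-like. In CTFs-like over CBFs-like 4 were lower, and in CBFs2-like over CBFs1-like 1 was higher and 0 lower. For smooth muscle-like over fibroblasts 0 were higher and 4 lower. In the reporter CTFs-like over CBFs-like 2 were higher, and the Ugt ratio was 4.08.

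At a pseudocount of 0.1 these counts were 6 lower (epithelium), 3 lower (goblet-like), 2 lower (CTFs-like), 1 and 1 (CBFs2-like), 0 and 2 (smooth muscle-like), and 0 and 0 (reporter); at 4-fold they were 5 lower, 2 lower, 3 lower, 2 higher, 0 and 4, and 0 and 0 in the same order. At 0.001, 3 members were higher in CTFs-like cells and 10 lower in the reporter library. A minimum of 100 counts gave 4 lower (goblet-like), 1 lower (CBFs2-like) and 3 higher (reporter CTFs-like). For CTFs-like over CBFs-like, 1 was higher, instead of 0, without the 5% of cells with the highest Scrublet scores (an alternative added after seeing the data), without high-mitochondrial cells, by pooled counts and against CBFs1-like cells alone, and 2 against CBFs2-like cells alone. In the reporter library 1 was lower at the higher resolution and with members kept (where Ces1d turned, 0.349), 8 by pooled counts, 3 higher and 1 lower against CBFs1-like cells and 5 lower against CBFs2-like cells. Why these values moved was not tested. Leaving out the cells Scrublet marked, 15 principal components, no minimum, and moving enteroendocrine-like or smooth muscle-like cells moved none of these counts or family sums. One library per group limits every value: the differences hold for pooled mice, and low members rest on few counts.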

Other observations

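Beyond the epithelium and the fibroblasts, a few members were counted in other stromal types of the wild-type library. Cyp2j9, a fatty acid epoxygenase, averaged 1.23 corrected counts per cell in the 78 glia-like cells (counted in 60.3% of them, exact 95% interval 48.5% to 71.2%) and at most 0.129 in the epithelial, fibroblast and smooth muscle classes. Glia-like cells also held Gstm5 at 1.49 and Cyp2j6 at 0.705. Cyp4b1 and Cyp7b1 both averaged 0.398 in the 118 pericyte-like cells, against at most 0.14 and 0.106 in the epithelial, fibroblast and smooth muscle classes. Cyp4b1 was higher still in the 143 lymphatic endothelial-like cells, at 1.01. Ces2e, higher in both enterocyte-like clusters, also averaged 0.557 in the 592 blood endothelial-like cells, where it was counted in 23.5% of cells (20.1% to 27.1%), against 0.966% of CBFs1-like cells. Ces2c, its neighbour, averaged 0.0186 in the same endothelial cells.

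At the finer clustering, the goblet-like clusters held 330 cells led by Retnlb, 308 led by Zg16 and 116 led by Spink4. They include cells from outside the 640 of the goblet-like class used above. Cyp2c68 averaged 0.698 in the Zg16-led cells, in which Reg4 averaged 41.1, and 0.0636 in the Retnlb-led cells, whereas Ces1f averaged 0.0455 and 0.421. The CTFs-like clusters held 573 cells led by Fam180a and 223 led by Lpar3, with Ces1g at 0.0314 and 0.161.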
